A study of Mus musculus with 22 samples.

Results

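The markers described here are 9 genes used to recognise macrophages at the borders of the central nervous system and monocytes from the blood, namely Mrc1, Cd163, Lyve1, Pf4, F13a1, Cbr2, Ccr2, Lyz2 and Mpeg1. They were taken by gene symbol from a table of 21995 genes measured by RNA-seq in whole mouse spinal cord, and all 9 had a row. Each gene was compared in old against young mice and, on its own, in SOD1 G93A mice against wild-type controls. The 22 libraries, 1 per mouse, fell into 4 groups, all of the C57BL/6 strain. The Young group held 8 wild-type males aged 3–4 months and the Old group 8 wild-type males aged 18–24 months, both made into libraries by the KAPA HyperPrep kit of Roche. The Control group held 3 wild-type mice and the G93a group 3 mice that carry a high-copy human SOD1 transgene with the G93A mutation, a model of amyotrophic lateral sclerosis (ALS). Both were labelled 5–6 months, included both sexes and were prepared with Illumina TruSeq. The transgene adds many copies of a human gene, and the cord was taken whole, so every cell type of the cord, with any meninges or nerve root left on it, contributed RNA. In such bulk samples, more cells of a type and more RNA per cell cannot be told apart.

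The brain and spinal cord hold microglia inside the parenchyma and a separate set of macrophages in the meninges, the perivascular spaces and the choroid plexus. These border-associated macrophages are recognised by scavenger and lectin receptors such as Mrc1 (CD206), Cd163 and Lyve1, and by Pf4, F13a1 and Cbr2, which microglia largely lack. Classical monocytes enter tissue through the chemokine receptor Ccr2. Lyz2, which encodes lysozyme M, and Mpeg1, which encodes the pore-forming protein perforin-2, are used as macrophage and monocyte markers too, but they are not restricted to these cells: microglia also make Mpeg1 and, when reactive, can make Lyz2.

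In these libraries the 9 markers separated by level. Lyz2 and Mpeg1 were abundant and rose in both comparisons, whereas the 7 markers more particular to border macrophages and monocytes never exceeded 30 counts in any library. With age, none of these 7 showed a difference larger than the spread between mice. In G93a mice their mean levels were higher than in controls, but on few counts. Only Mrc1, Cd163 and F13a1 had enough counts to be tested there, and they passed the filter on low counts only through the G93a libraries. Of these Mrc1 alone passed the thresholds used, narrowly.

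The upstream sequences of Lyz2 and Mpeg1, the markers that moved together, and of Mrc1, a border macrophage marker near the detection limit, are shown so that they can be set side by side. Each is the 250 bases before the start of the gene in RefSeq on GRCm38.p6, the assembly known as mm10, read 5′ to 3′ on the strand of the gene. Capitals mark the letters GAGGAA or their reverse complement, a form of PU.1 site that is called the core here. PU.1 is the transcription factor that directs the myeloid lineage. Lyz2 is at chr10:117282273-117282522 on the minus strand, Mpeg1 at chr19:12460520-12460769 on the plus strand and Mrc1 at chr2:14229164-14229413 on the plus strand.
Lyz2: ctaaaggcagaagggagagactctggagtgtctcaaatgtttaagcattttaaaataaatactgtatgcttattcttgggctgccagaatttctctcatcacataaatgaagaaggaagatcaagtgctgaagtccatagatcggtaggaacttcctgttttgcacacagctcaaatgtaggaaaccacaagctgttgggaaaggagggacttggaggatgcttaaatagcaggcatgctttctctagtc
Mpeg1: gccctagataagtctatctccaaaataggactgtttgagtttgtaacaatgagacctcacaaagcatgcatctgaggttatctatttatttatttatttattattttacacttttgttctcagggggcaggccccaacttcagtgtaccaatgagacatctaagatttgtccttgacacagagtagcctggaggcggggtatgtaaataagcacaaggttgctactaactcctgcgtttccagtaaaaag
Mrc1: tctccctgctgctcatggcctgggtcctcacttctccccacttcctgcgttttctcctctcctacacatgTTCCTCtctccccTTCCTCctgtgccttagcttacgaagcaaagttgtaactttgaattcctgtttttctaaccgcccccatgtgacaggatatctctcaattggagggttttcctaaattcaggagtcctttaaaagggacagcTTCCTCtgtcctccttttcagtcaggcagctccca

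The windows of Lyz2 and Mpeg1 hold no match to this core, while that of Mrc1 holds 3. These begin 180, 167 and 35 bases before the start and all lie on the opposite strand. The shorter letters GGAA or their reverse complement do occur in the windows of Lyz2 and Mpeg1. They were not searched for, so the lack of a match does not show that a PU.1 site is absent. Windows of 300 bases, with 50 bases past the start, were on hand for 8 of the 9 markers. F13a1 had a second window, and a marker was counted if any of its windows matched, whereas the shares below are per window. The core was found in 4 of these 8, Mrc1, Pf4, F13a1 and Cbr2, against 28.3% of 32851 promoter windows of that length. A longer form of it, GAGGAAGT, was found in Pf4 and F13a1, against 3.2% of all windows. A C/EBP-type motif, TTGCNNAA on either strand, matched in Pf4, against 10.8% of all windows. The AP-1 motif TGANTCA on either strand, present in 7.81% of windows, and TATAAA on the strand of the gene, present in 8.32%, matched in none of the 8.

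Lyz2 has a close relative next to it, Lyz1, so the opening 120 bases of the coding sequences of both are printed, with capitals at the positions where they differ. They start at position 117282242 for Lyz2 and 117292838 for Lyz1, both on the minus strand of chromosome 10 (GRCm38, GENCODE M21).
Lyz2: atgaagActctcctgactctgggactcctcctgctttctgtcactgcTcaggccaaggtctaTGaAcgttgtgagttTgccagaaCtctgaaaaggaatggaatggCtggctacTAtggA
Lyz1: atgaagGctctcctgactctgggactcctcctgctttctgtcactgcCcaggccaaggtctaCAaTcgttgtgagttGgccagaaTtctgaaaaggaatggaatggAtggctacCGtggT

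Over the whole coding sequence of 444 bases the pair differed at 22 positions, 11 of them within the stretch shown. Of the 1267 different words of 50 bases in the Lyz2 transcripts, 15.4% also occurred in Lyz1, so some reads could be assigned to either. Lyz1 itself stayed low. It had at most 1 count in a young library and 7 in an old one, and from 0 to 6 in control and from 11 to 17 in G93a libraries.

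Total counts ran from 5078092 to 9358055 in the Young, 5664869 to 9145600 in the Old, 10693060 to 13219797 in the Control and 9675610 to 11872431 in the G93a libraries. A gene with 3 counts, used here as the detection floor, therefore stood at 0.321–0.591 CPM (counts scaled to a common library size) in young and at 0.253–0.310 CPM in G93a libraries. Mouse Sod1 had 1767, 1858 and 2033 counts in the controls and 3520, 2943 and 3747 in the G93a libraries; whether reads of the human transgene fell on it was not tested. The spinal cord genes Slc6a5 and Hoxc8 were present throughout. One old library, number 6, stood apart in myeloid genes, and 2 libraries carried a gene of peripheral nerve; both are described with the results they touch.

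Lyz2, which encodes the lysozyme of macrophages and granulocytes, had the largest change of the 9 markers. The gene (ENSMUSG00000069516) spans 117277331 to 117282321 on the minus strand of chromosome 10 in GRCm38. In the young libraries its level ran from 4.82 to 7.24 CPM with a median of 5.85, on 30 to 66 counts. In the old libraries it ran from 40.9 to 259 CPM with a median of 187, on 265 to 2425 counts. The lowest old mouse was thus well above the highest young mouse. The means were 6.05 ± 0.857 (SD, n = 8) and 175 ± 67.7 CPM (SD, n = 8). In edgeR's quasi-likelihood test over 13647 genes, Lyz2 was 28.7-fold higher in old mice (log2 fold change 4.84, SE 0.28, adjusted p = 1.48e-11).

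Mpeg1, whose protein is inserted into the membranes of engulfed bacteria, was already well expressed in young cord. The gene (ENSMUSG00000046805) spans 12460779 to 12465283 on the plus strand of chromosome 19. Its level ran from 23.9 to 32.7 CPM with a median of 28.6 in young libraries, and from 74.7 to 185 CPM with a median of 146 in old ones. The groups did not overlap. The means were 28.8 ± 3.28 and 144 ± 36.1 CPM (SD, n = 8 each), a 4.99-fold rise (log2 fold change 2.32, SE 0.13, adjusted p = 1.48e-11 in edgeR).

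These 2 were the only markers that passed the filter on low counts in this comparison. Both passed the thresholds, a log2 fold change over 1 and an adjusted p under 0.05, which 2.18% of the 13647 genes tested passed upward. Their old libraries all lay above all young ones, as was so for 3.66% of genes tested. The median log2 fold change of all genes was −0.0027.

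The spread among the old mice was wide. Old library 6 was the lowest of the 8 in both genes, with Lyz2 at 40.9 CPM against 117 to 259 in the other old libraries, and Mpeg1 at 74.7 against 118 to 185. The same library was lowest in Csf1r, Tyrobp, Cd68 and Aif1, genes of all tissue macrophages, and highest in the neuronal gene Snap25, with 3054 CPM against 1918 to 2571. What set it apart was not tested. Without it the log2 fold change was 4.99 for Lyz2 and 2.41 for Mpeg1.

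In the ALS comparison the changes of the same genes were larger. Lyz2 stood at 8.83, 10.5 and 6.38 CPM in the 3 control libraries and at 987, 369 and 582 CPM in the 3 G93a libraries. On the scale of CPM, the lowest G93a library was above every control. The means were 8.58 ± 2.08 and 646 ± 314 CPM (SD, n = 3 each), a 75.5-fold rise (log2 fold change 6.24, SE 0.40, adjusted p = 8.14e-05 in edgeR over 14386 genes).

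Mpeg1 stood at 38.2, 29.7 and 30.0 CPM in the controls and at 661, 310 and 461 CPM in the G93a libraries. Again the groups were far apart, and the G93a libraries kept the order they had for Lyz2. The means were 32.6 ± 4.85 and 477 ± 176 CPM (SD, n = 3 each), a 14.6-fold rise (log2 fold change 3.87, SE 0.27, adjusted p = 8.17e-05 in edgeR). Of all genes tested, 8.5% passed the thresholds upward in this comparison.

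**Figure D1:**
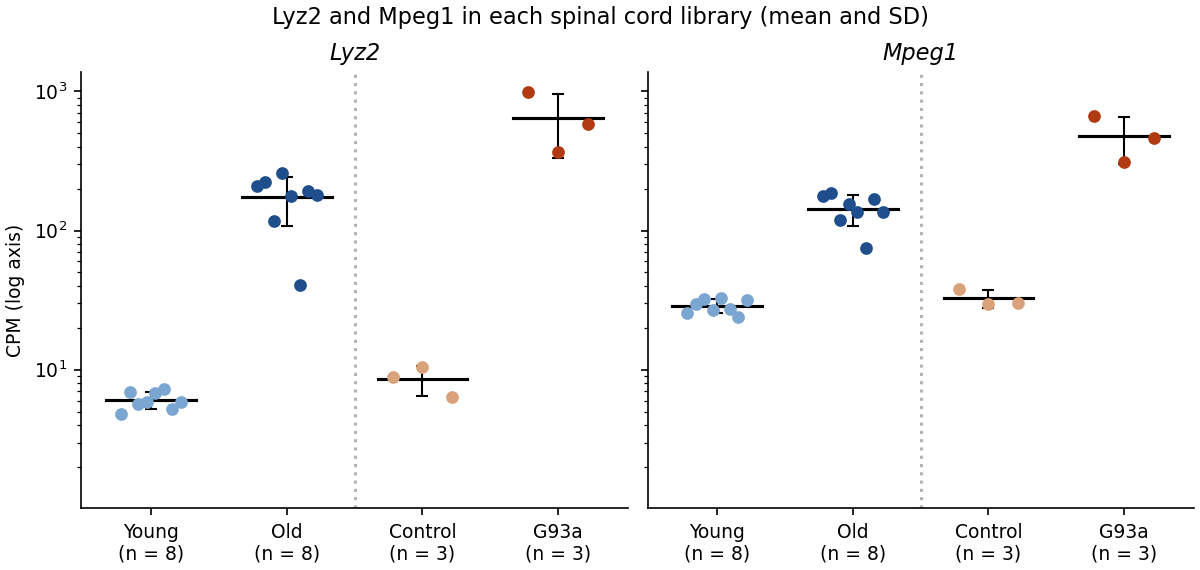
Level of Lyz2 (left) and Mpeg1 (right) in CPM on a log axis, 1 point per library, in the Young, Old, Control and G93a groups; black bars are means and error bars SDs. All old points lie above all young points and all G93a points above all control points, and the single old library at 40.9 CPM of Lyz2 is also the lowest old library for Mpeg1.

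Whether a marker changed by a different amount in the 2 experiments was tested as an interaction in 1 edgeR fit of all 22 libraries, where the library kit and the experiment cannot be told apart. Of the 5 markers that could be tested, 1 passed. Mpeg1 rose by 1.53 more on the log2 scale in G93a mice than in old mice (SE 0.28, adjusted p = 0.000312), in a test where 11.6% of genes had a larger change in ALS. For Lyz2 the difference was 1.37 (SE 0.54, adjusted p = 0.0638), which passed with DESeq2 (adjusted p = 0.0391).

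Levels of different genes were compared only per transcript length, as FPKM. In young cord Lyz2 had a median of 4.34 FPKM and Mpeg1 of 6.20, whereas the other 7 markers had medians of 0.525 or less. In old cord the order of the leading pair was turned, with a median of 137 FPKM for Lyz2 and 32.8 for Mpeg1. In G93a cord the medians were 441 and 104 FPKM. The ratio of Lyz2 to Mpeg1 FPKM, a measure chosen after the values were seen, ran from 0.599 to 0.886 in young and from 1.84 to 5.58 in old libraries, a difference in mean log2 ratio of 2.43 (exact two-sided permutation test, p = 0.000155, the smallest that 8 against 8 allows). It ran from 0.719 to 1.20 in control and from 4.00 to 5.02 in G93a libraries, a difference of 2.33 (exact permutation test, p = 0.1, the smallest that 3 against 3 allows). Old library 6 had the lowest of the old ratios.

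**Figure D2:**
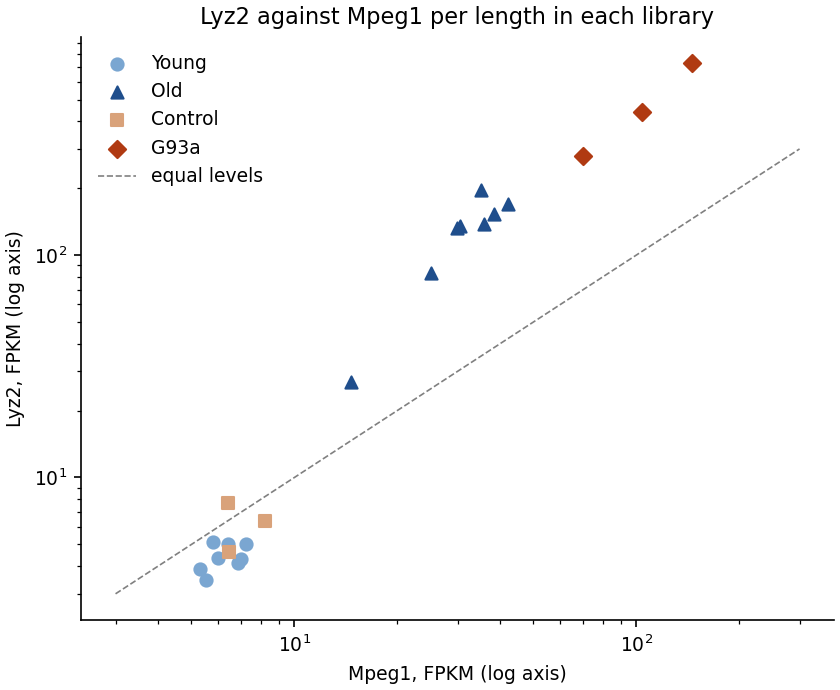
Lyz2 against Mpeg1 in FPKM, both on log axes, with 1 point per library and the dashed line marking equal levels. Young libraries lie under the line, control libraries on both sides of it, and old and G93a libraries above it, up to a ratio of 5.58.

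Among the old mice, libraries high in Lyz2 were high in Mpeg1 too. Across the 8 old libraries, log2 CPM of the pair gave r = 0.944 (exact permutation p = 0.00496, adjusted 0.00992 over 2 relations) and rho = 0.857 (exact permutation p = 0.0107, adjusted 0.0214). Without the 2 libraries farthest from the median of Lyz2, r was 0.513 over 6 libraries, so the relation rested on those libraries. Across the 8 young libraries r was 0.483 (exact permutation p = 0.223) and rho 0.476 (p = 0.243 in the exact permutation test), with r of 0.601 over the 6 libraries left after the same step.

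Over all 22 libraries, the genes whose log2 CPM, centred on the control group of each experiment, ran closest to that of Mpeg1 were Trem2 (root mean square difference 0.174), Tyrobp (0.189) and Vim (0.211) out of 13607 genes. Trem2 is a lipid receptor of microglia and macrophages and Tyrobp its signalling adaptor. Those closest to Lyz2 were Cybb (0.490), which encodes the membrane subunit of the phagocyte NADPH oxidase, Ccn5 (0.535) and Gpnmb (0.542), a glycoprotein of lysosome-rich phagocytes. The nearest genes of Lyz2 were thus more distant from it than those of Mpeg1 were. Of the other markers that could be tested in ALS, none was tested in both comparisons, so no neighbours were sought for them.

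The receptors of border macrophages came next. Mrc1, the mannose receptor (ENSMUSG00000026712, chromosome 2, 14229392 to 14332057, plus strand), had 2 to 12 counts with a median of 3.5 in young libraries and 2 to 10 with a median of 5.5 in old ones. The groups overlapped throughout. Pooled over libraries, the ratio of old to young was 1.21 with a 95% counting interval from 0.783 to 1.88, and the difference in mean log2 CPM of 0.28 was within the spread between mice (exact permutation test, two-sided, p = 0.378). Such intervals, exact from the binomial share of the counts, cover counting error only.

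In the ALS comparison Mrc1 had 12, 8 and 6 counts in control and 30, 10 and 27 in G93a libraries. G93a library 2 fell within the range of the controls. The log2 fold change was 1.42 (SE 0.48, adjusted p = 0.0478 in edgeR), or 2.68-fold. Mrc1 passed the filter on low counts only through the G93a libraries, so a rise was bound to the filter. This call was narrow: it was lost with DESeq2 (adjusted p = 0.0536), with no filter on low counts (0.0551) and on leaving out any of the 3 controls (0.0540, 0.142 and 0.148), G93a library 1 (0.147) or G93a library 3 (0.161), while without G93a library 2 it was 0.00937.

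Cd163, the receptor that clears haemoglobin bound to haptoglobin, had 3 to 17 counts with a median of 10 in young libraries and 5 to 11 with a median of 7.5 in old ones. The pooled ratio of old to young was 0.864, with an interval from 0.608 to 1.22 (exact permutation test, p = 0.557). In controls it had 13, 10 and 10 counts and in G93a libraries 21, 16 and 16. These groups did not overlap, but the log2 fold change of 0.77 (SE 0.34) did not pass, with an adjusted p of 0.114 in edgeR.

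Lyve1, a hyaluronan receptor that lymphatic endothelium shares with border macrophages, was at 3 counts or fewer in 7 of 8 young and 6 of 8 old libraries. Its young libraries ranged from 0 to 5 counts and its old ones from 1 to 9, with a median of 1.5 in each group. The pooled ratio of old to young was 1.87 (interval 0.910 to 4.03; exact permutation test, p = 0.233). The controls had 1, 1 and 5 counts and the G93a libraries 6, 4 and 7, which did not overlap once scaled to CPM. The pooled ratio of G93a to control was 2.62 (interval 1.03 to 7.46; exact permutation test, p = 0.1). Of 6 other genes of lymphatic endothelium, Mmrn1 and Ccl21a had no count in any control or G93a library, and at most 1 and 5 counts in a young or old one. The other 4, Prox1, Reln, Flt4 and Pdpn, which other cells of the cord also make, were well detected, and Pdpn rose by 1.19 in old (adjusted p = 8.76e-08 in edgeR) and 2.47 in G93a mice (adjusted p = 0.000241).

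Among the secreted and intracellular markers, F13a1, the A subunit of coagulation factor XIII, had 2 to 16 counts in young and 1 to 10 in old libraries, with medians of 7 and 6. The pooled ratio of old to young was 0.844 (interval 0.562 to 1.26; exact permutation test, p = 0.703). It had 9, 14 and 2 counts in controls and 21, 12 and 11 in G93a libraries, which overlapped, with a log2 fold change of 0.89 (SE 0.58, adjusted p = 0.272 in edgeR). It was 0.37 without control library 3 and 1.45 without control library 2, and did not pass in either. F13a1 overlaps 2 genes on the other strand, Gm49144 and Gm30489, and Mrc1 contains the miRNA gene Mir511, so reads there could be shared where strand was not used.

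Pf4, platelet factor 4, which border macrophages also make, was at 0 in 5 of 8 old and 2 of 8 young libraries. Its young libraries ranged from 0 to 3 counts and its old ones from 0 to 7, with 7 of the 10 counts of the old group in library 5 alone. The pooled ratio of old to young was 0.815 (interval 0.320 to 2.01; exact permutation test, p = 0.494). In controls it had 4, 1 and 0 counts and in G93a libraries 7, 6 and 7, a pooled ratio of 4.31 (interval 1.57 to 14.7; exact permutation test, p = 0.1).

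Cbr2, a carbonyl reductase, had 0 to 5 counts in young and 0 to 2 in old libraries, with a pooled ratio of 0.652 (interval 0.234 to 1.70; exact permutation test, p = 0.516). It had 1, 2 and 0 counts in controls and 5, 1 and 7 in G93a libraries. These overlapped, with a pooled ratio of 4.67 (interval 1.28 to 25.5; exact permutation test, p = 0.2).

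Ccr2, the receptor of classical monocytes (ENSMUSG00000049103, chromosome 9, 124101950 to 124113557, plus strand), had 0 to 4 counts in both the young and the old libraries, with a median of 1 in each. The pooled ratio of old to young was 0.733 (interval 0.277 to 1.85; exact permutation test, p = 0.481). In G93a mice it stood apart from the controls: 10, 8 and 12 counts against 4, 0 and 0. The pooled ratio was 8.08 with an interval from 2.85 to 31.6, and every G93a library was above every control. The exact permutation test gave p = 0.1, the smallest possible with 3 against 3. edgeR with no filter on low counts, chosen as a test of the filtered markers after the data were seen, gave a log2 fold change of 2.86 (SE 0.93, adjusted p = 0.0412).

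**Figure D3:**
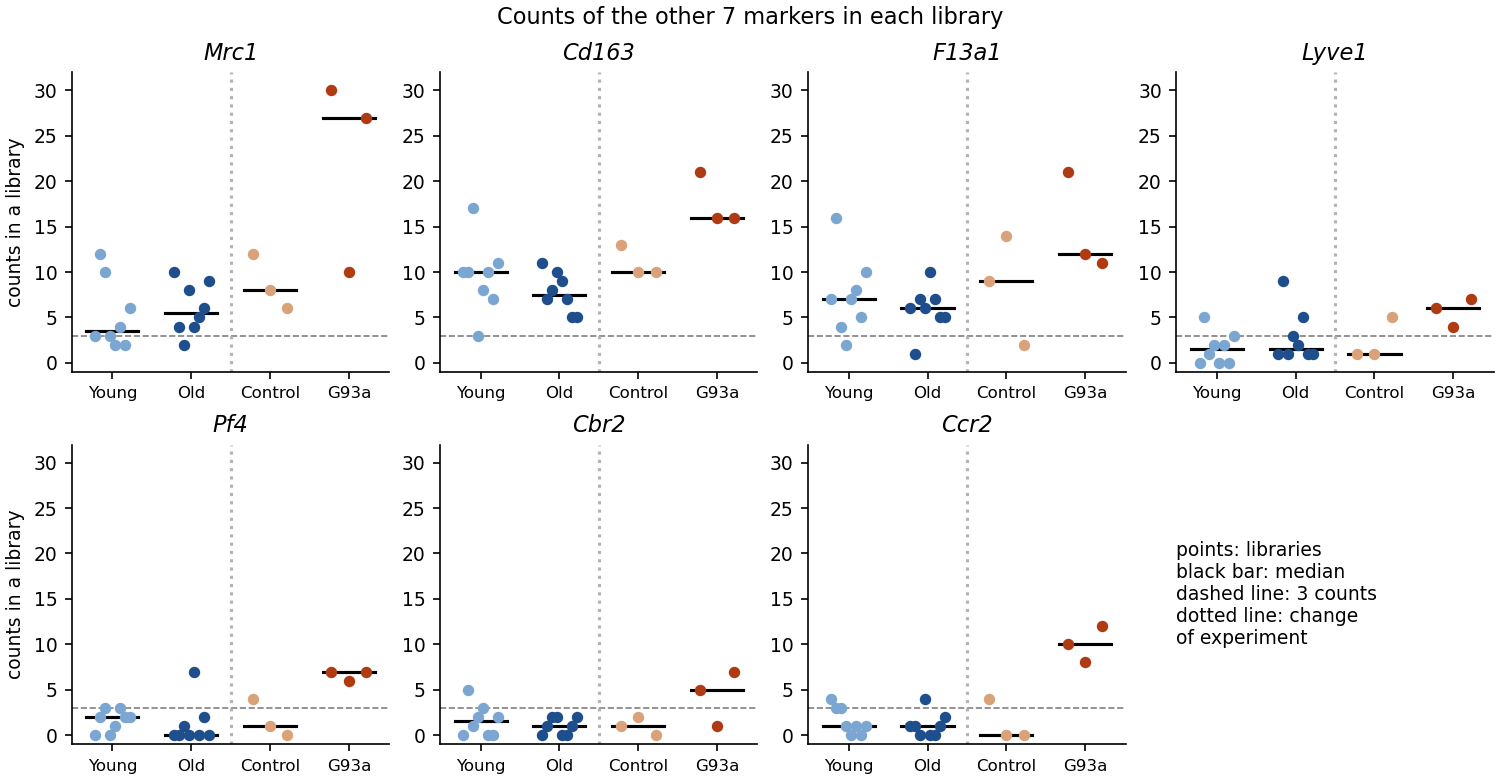
Counts of Mrc1, Cd163, F13a1, Lyve1, Pf4, Cbr2 and Ccr2 in each library of the 4 groups, on 1 linear scale, with medians as black bars and 3 counts as a dashed line. Young and old points overlap for all 7, no point exceeds 30 counts, and for Ccr2 the 3 G93a points at 8 to 12 counts lie above the controls at 0 to 4. The Control and G93a libraries are deeper than the Young and Old libraries.

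Summed over these 7 markers, the old libraries held 2.70 to 4.67 CPM (median 3.61) and the young ones 2.26 to 6.03 CPM (median 3.02). The control libraries held 1.77 to 4.18 CPM (median 3.03) and the G93a libraries 5.74 to 8.47 (median 7.79). The old range lay within the young one, while the G93a range lay above the controls. With age, 5 of the 7 had a lower mean in old mice and 2, Mrc1 and Lyve1, a higher one, none past its test. The counting interval of the ratio with age reached past 2 for Lyve1 and Pf4 and ended below 2 for the other 5. In ALS all 9 markers had a higher mean in G93a mice, and 6 did not overlap. Of genes tested, 25.7% stood above every control, but Lyve1, Pf4 and Ccr2, which are among the 6, were not tested. That share was not computed for sparser genes, so the count of 6 is not read as a result. As 4 of the 9 failed the filter and 3 passed on no more than 30 counts, the share of markers called was not read as a result.

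**Figure D4:**
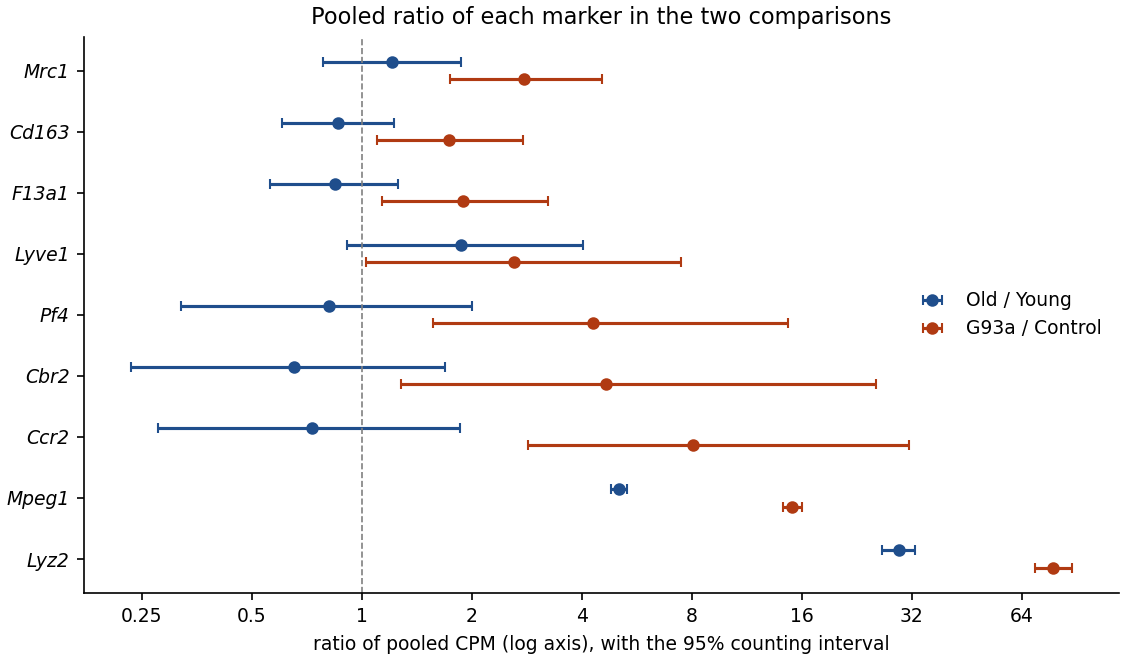
Ratio of pooled CPM of each of the 9 markers, on a log axis, for old over young (blue) and G93a over control (red), with 95% counting intervals that leave out the spread between mice. For the upper 7 markers the aging interval includes 1; the ALS ratios of these 7 run from 1.73 to 8.08, below the 15.1 of Mpeg1 and 78.0 of Lyz2.

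Prx, a gene of the Schwann cells of peripheral nerve, moved with some of these counts. It had 247 counts in G93a library 1 and 119 in old library 5, and at most 16 in any other library. G93a library 1 was the highest of its group in Mrc1, Cd163, F13a1, Lyz2 and Mpeg1, and had 275 counts of the fibroblast gene Dcn against 89 and 88 in the other G93a libraries. Old library 5 held the 7 counts of Pf4. Without G93a library 1, Lyz2 and Mpeg1 were still called, with log2 fold changes of 5.80 and 3.57, and Mrc1 was not (adjusted p = 0.147 in edgeR). Without old library 5 they were 4.83 and 2.33 in old mice. Ccr2 had 8 and 12 counts in the other G93a libraries.

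A list of 25 other genes of border macrophages gave a wider view. In old mice 7 of the 25 were tested, of which 2 rose, 1 fell and none passed the threshold on the fold change, with a median log2 fold change of 0.24. Rose and fell are used for the lists at an adjusted p under 0.05 of any size, which 13.5% of all genes tested passed upward and 12.9% downward in old mice. Hpgd, which breaks down prostaglandins, rose by 0.68 (adjusted p = 0.000477 in edgeR) and Dab2, an endocytic adaptor, by 0.28 (adjusted p = 0.0179), and Cd38 fell by 0.19 (adjusted p = 0.0216). Some members too sparse for the test stood higher in old mice. Siglec1, the sialic acid receptor of macrophages, had 0 to 3 counts in young and 3 to 40 in old libraries, Wfdc17 0 or 1 against 2 to 21, and Aoah 0 to 3 against 3 to 11. These 3 of the 18 untested genes did not overlap on the scale of CPM and were named after their values were seen. Of genes tested, 3.66% stood above without overlap. That share was not computed for sparser genes, so the count is not read as a result.

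In G93a mice 12 of the 25 were tested, 10 rose, 9 were called and the median log2 fold change was 2.42, against 0.0031 over all genes. Ms4a7, Siglec1, Wfdc17, Cd36 and Clec12a, with at most 6 counts in any control, passed the filter only through the G93a libraries. Their rise was thus bound to the filter, and they raise these counts and the median. None of them was tested in old mice, so the medians of the 2 comparisons cover different genes. Of all genes tested in this comparison 18.4% rose, 15.5% fell and 8.5% were called upward. Siglec1 had 2 to 4 counts in control and 79 to 237 in G93a libraries (log2 fold change 5.83, adjusted p = 0.000164), and Ms4a7, a membrane protein of border macrophages, 0 to 2 against 34 to 125. Wfdc17 had no count in any control and 25 to 93 in G93a libraries. Dab2 rose by 1.73 (adjusted p = 0.00027 in edgeR), Hpgd by 3.06 (adjusted p = 0.000278) and Stab1, a scavenger receptor, by 1.71 (adjusted p = 0.000923). Others of the list remained near the floor, among them Cd209b, Cd209f, Clec10a and Timd4, with at most 3 counts in any control or G93a library.

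Of 21 further genes of monocytes, 8 were tested in old mice, 3 rose and 1 fell, against the 13.5% and 12.9% of all genes, with a median log2 fold change of 0.11. Cd44, a hyaluronan receptor, rose from 27.9 to 55.9 CPM (adjusted p = 2.22e-09 in edgeR), the matrix gene Fn1 by 0.72 (adjusted p = 1.20e-06) and Mgst1 by 0.52 (adjusted p = 5.73e-05), while Vcan fell by 0.25 (adjusted p = 0.0275). These are not restricted to monocytes. In G93a mice 10 were tested, 7 rose and 1 fell (18.4% and 15.5% of all genes), with a median of 0.87. Cd44 rose by 2.73 (adjusted p = 0.000228), Itgal, an integrin subunit of leukocytes, by 3.39 (adjusted p = 0.00529) and Ifitm6 by 2.61 (adjusted p = 0.00257). The 1 that fell was Ace (log2 fold change −0.52, adjusted p = 0.00854 in edgeR). Itgal and Ifitm6, with at most 11 counts in a control, passed the filter only through the G93a libraries. Of the 11 genes of the list that were too sparse for the test in G93a mice, 7 overlapped between the groups, among them Ly6c2 with 4 to 18 counts in control and 6 to 14 in G93a libraries, and Plac8 and F10 with at most 1 count. Above every control were 2, Chil3 with no count against 1 to 5 and Ms4a4c with 0 or 1 against 4 to 15, and below every control 2, Treml4 and Napsa. Of genes tested, 25.7% stood above every control. That share was not computed for sparser genes, so these counts are not read as a result.

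Of the 4 chemokines that bind Ccr2, 2 were tested in G93a mice and both rose (18.4% of all genes rose). Both passed the filter only through the G93a libraries, so this count is not read as a result. Ccl2, the main attractant of monocytes, had 0 to 2 counts in control and 15 to 25 in G93a libraries (log2 fold change 4.34, adjusted p = 0.00214 in edgeR), and Ccl12 had 0 to 3 against 13 to 21 (log2 fold change 3.42, adjusted p = 0.00583). Ccl7 had no count in a control and 2 to 8 in G93a libraries, and Ccl8 at most 6 counts. In old mice none of the 4 was tested. Their summed level ran from 0.141 to 0.658 CPM in young and from 0.925 to 3.75 CPM in old libraries, without overlap. Each of the 4 on its own overlapped, with 0 or 1 count of Ccl2 in young and 0 to 14 in old libraries. How often sums of sparse genes stand apart was not computed, so this is not read as a result.

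Among relatives and partners of the markers, 5 of 10 tested rose in old mice (13.5% of all genes), with a median log2 fold change of 0.38. In G93a mice 7 of 11 rose (18.4% of all genes), with a median of 1.03. Lyz1, 1 of these 7, passed the filter only through the G93a libraries. The transglutaminase Tgm2, of the same enzyme family as F13a1, rose by 0.78 (adjusted p = 2.35e-06) and 1.24 (adjusted p = 0.00145 in edgeR), and Cx3cr1, the fractalkine receptor of microglia, by 0.91 and 1.91. Of 9 genes of heme and iron handling, a pathway that Cd163 feeds, Hmox1, the heme oxygenase, rose by 1.04 in old and 3.23 in G93a mice and the ferritin light chain Ftl1 by 0.99 and 2.05. In all, 4 of the 7 tested rose in old mice (13.5% of all genes) and 2 of 7 in G93a mice (18.4% of all genes).

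Genes shared by all macrophages moved with Lyz2 and Mpeg1. All 10 of a pan-myeloid list rose in both comparisons, with medians of 1.56 and 2.85. Cd68, a lysosomal protein, rose by 3.20 (adjusted p = 6.53e-13 in edgeR) and 4.45 (adjusted p = 8.14e-05), and Csf1r, the receptor on which macrophages depend, by 0.69 and 1.79. The summed level of the list ran from 166 to 200 CPM in young and from 301 to 513 in old libraries, and from 174 to 201 in control and from 774 to 1453 in G93a libraries. Of 12 microglial genes, 8 rose in old mice (median 0.72; 13.5% of all genes rose) and 7 in G93a mice (median 1.47; 18.4% of all genes rose), led by Trem2 (2.37 and 3.77) and Fcrls (1.52 and 4.08). P2ry12, Sall1, Siglech and Slc2a5 passed in neither comparison. The summed microglial level ran from 297 to 327 CPM in young, 442 to 654 in old, 316 to 382 in control and 1018 to 1580 in G93a libraries. The part of each cell type in the levels of Lyz2 and Mpeg1 was not tested.

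**Figure D5:**
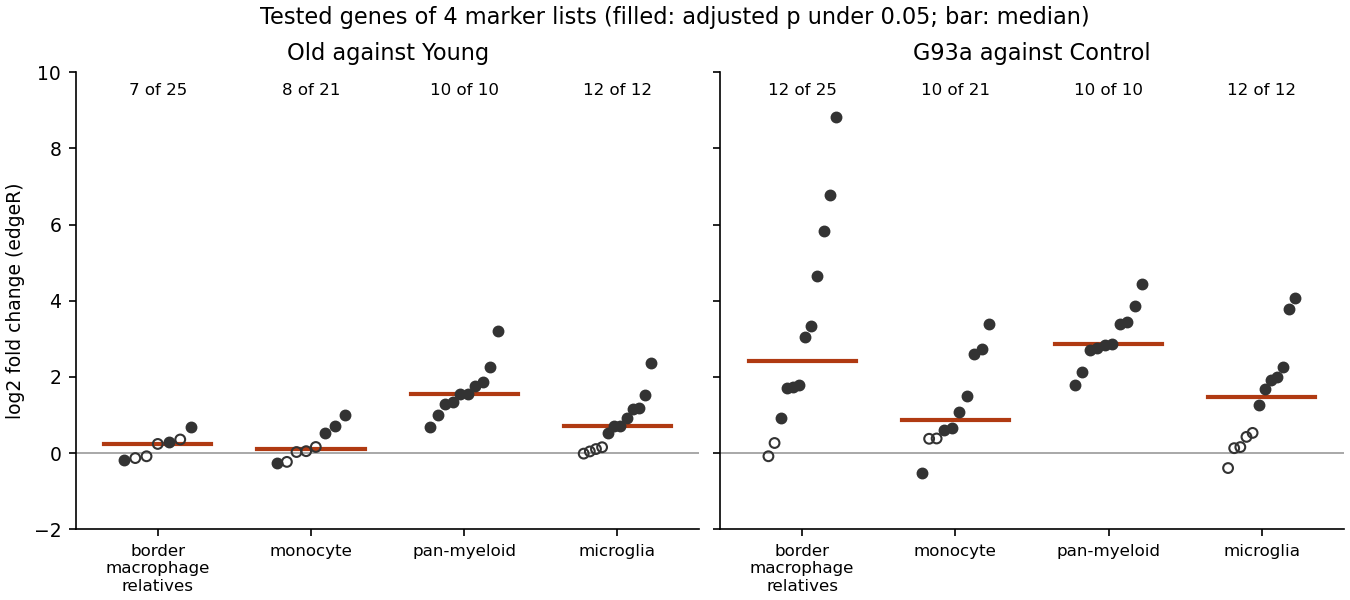
Log2 fold change from edgeR of each tested gene of 4 lists, in old against young (left) and G93a against control (right) mice; filled points have an adjusted p under 0.05, red bars are medians, and the numbers over the points give tested genes out of all. In old mice the medians run from 0.11 for monocyte genes to 1.56 for pan-myeloid genes, and in G93a mice from 0.87 to 2.85. The topmost point is Wfdc17, at 0 in every control, whose fitted value depends on the prior count. The tested border macrophage and monocyte genes differ between the panels, as some passed the filter only through the G93a libraries.

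Markers of other cells were read for the same libraries. Of all genes tested, 13.5% rose in old mice, while 18.4% rose and 15.5% fell in G93a mice. Of 12 neutrophil genes, 1 was tested, the protease gene Mmp9, which fell by 1.59 in G93a mice (adjusted p = 0.00269 in edgeR) and did not pass in old mice. Ly6g was at 0 in every library, and S100a8 and S100a9 had at most 8 counts. The platelet gene Ppbp, which lies in the same chemokine cluster as Pf4, had at most 9 counts, and of the 8 platelet genes none passed in old mice and 1, Itga2b, rose in G93a mice (log2 fold change 1.25, adjusted p = 0.0454). None of 5 red blood cell genes, a sign of blood left in the tissue, passed in either comparison, with medians of 0.32 and −0.02. Of 9 meningeal fibroblast genes, 1 rose in old mice, Mgp by 0.58 (adjusted p = 0.0145), and 1 in G93a mice, Col1a1 by 1.35 (adjusted p = 0.0103). Of the T and B cell genes none reached the test in old mice, and 1 of each did in G93a mice and did not pass. The summed level of 8 T cell genes ran from 0.988 to 2.62 CPM in young and from 2.92 to 5.00 CPM in old libraries, without overlap, and from 2.09 to 3.11 in control and 2.88 to 3.76 in G93a libraries. That of 5 B cell genes overlapped in both comparisons, from 0.194 to 2.60 CPM in young, 0.544 to 3.08 in old, 0.845 to 2.36 in control and 0.763 to 3.02 in G93a libraries. How often sums of sparse genes stand apart was not computed, so the T cell ranges are not read as a result. The part of these cells in the marker levels was not tested.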

How the data were processed

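RNA of whole spinal cord was sequenced by the authors on the Illumina HiSeq platform, aligned with STAR and summarised with RSEM on an Ensembl annotation of mm10. They deposited 1 table of expected counts per gene, not normalized between libraries, and 1 table of log2(FPKM + 1) values. All 22 columns of both were used; each names its group but no replicate number. The expected counts were whole as deposited; FPKM was obtained by undoing the log2. The members and gene lists were chosen with earlier results of these data known.

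Each comparison was fitted on its own with edgeR 4.0.16 in R 4.3.3: filterByExpr (minimum count 10, minimum total 15), TMM factors and the quasi-likelihood test, with p adjusted by Benjamini-Hochberg across every gene tested. A gene was called past a log2 fold change of 1 in either direction and an adjusted p of 0.05, the study's thresholds. CPM values use the TMM library sizes. For markers removed by the filter, mean log2 CPM (prior count 2) entered a two-sided exact permutation test, with 12870 arrangements for 8 against 8 and 20 for 3 against 3. Pooled ratios carry exact 95% counting intervals. The labels do not say whether litters or cages were shared, so p-values measure the spread between these mice. No libraries were identical: the smallest chi-square per degree of freedom between 2 libraries of a group was 2.57. On simulated data with 1.5 log2 changes, genes were judged at an adjusted p of 0.05 with no threshold on the fold change. With the aging design (13564 genes) 99.5% of 197 changed genes were recovered, and with the ALS design (14276 genes) 92.4% of 198. Of the genes that passed, 6.67% and 7.58% were unchanged genes.

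Named genes are the 9 markers, their 3 nearest genes and, from the lists, mainly genes with a small adjusted p. Genes with the largest adjusted p were named for few lists, and not all lists of up to 6 genes were named whole. The named genes are thus not a balanced draw from the lists. Genes too sparse for the test and other genes of the lists, such as Csf1r, Cx3cr1, Lyz1, Hmox1, Prx, Dcn and Snap25, were named after their values were seen. Gene positions and overlaps come from GENCODE M21, which holds 21842 of the 21995 genes, and promoter windows from RefSeq on GRCm38.p6. Whether strand was used in counting is not given in the sources used here. Alternatives were DESeq2 1.42.0, RLE factors, 2 other filters, 1 fit of all 22 libraries, no fold threshold and leaving out each library.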

Additional observations from a re-analysis of the deposited data

Results flagged for a closer look

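Pf4 was at 1.02 CPM, or 7 counts, in old library 5, far from the other old libraries, of which the next highest was at 0.278 CPM. Of 18 groups of 8 libraries examined for such a value, this was the 1 found, and chance gives about 1 in 20. The same library had 119 counts of Prx, a gene of Schwann cells; its part in the value was not tested.

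Mpeg1 changed by different amounts in the 2 experiments: its log2 fold change was larger by 1.53 in G93a against control than in old against young mice, by a test of the difference itself (edgeR interaction, adjusted p = 0.000312). Library kit, age, depth and the sexes included differ between the experiments and cannot be told apart from it. Over the 22 fits that each left out 1 library the difference ran from 1.23 to 1.75.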

How the results depend on the processing

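Lyz2 and Mpeg1 were called in both comparisons under every alternative run, with log2 fold changes from 4.74 to 4.99 and from 2.26 to 2.41 in old mice and from 5.80 to 6.52 and from 3.57 to 4.11 in G93a mice. In old mice 2 markers were called in every setting. In G93a mice from 2 to 4 were called, with 4 without G93a library 2, where Ccr2 passed too (log2 fold change 2.96, adjusted p = 0.0317 in edgeR); Ccr2 also passed without control library 1 (0.0159), where the controls left had no count of it. The alternatives that lost Mrc1 are given with its values. Of the interaction, 2 markers passed in place of 1 with DESeq2, where the difference of Lyz2 had an adjusted p of 0.0391; on leaving out a library the number ran from 1 to 2, with Lyz2 passing without old library 4 (0.0368), old library 6 (0.0119) or G93a library 2 (0.0196). Genes called in old mice numbered 303, against 536 with no filter, 171 with at least 10 counts in every library, 456 in 1 fit of all libraries and 3600 with no fold threshold. In G93a mice they numbered 4877 with no fold threshold and from 1087 to 1971 on leaving out a library. The direction turned on leaving out 1 library for 2 sparse markers in old against young mice, with log2 CPM differences from −0.22 to 0.0014 for Cd163 (young library 3) and from −0.23 to 0.0815 for F13a1 (young library 2 and old library 2). The cause was not tested. No paired analysis was possible because the columns carry no replicate numbers. At this depth the counts of the 7 sparse markers limit every statement on them.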

Other observations

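Of 8 dendritic cell genes, 2 were tested in old and 4 in G93a mice, and Flt3, a cytokine receptor that neural tissue also expresses, fell in both, by 0.24 (adjusted p = 0.0118 in edgeR) and 0.93 (adjusted p = 0.0135). Of 7 blood endothelial genes 3 fell in old mice, Kdr by 0.44 (adjusted p = 0.0148), Tek by 0.36 (adjusted p = 0.00439) and Flt1 by 0.17 (adjusted p = 0.00927 in edgeR). In G93a mice 1 of the 7 fell, Kdr by 0.93 (adjusted p = 0.0113). Of all genes tested, 12.9% fell in old and 15.5% in G93a mice. Of the lymphatic endothelial genes, Prox1 and Reln fell in old mice by 0.27 (adjusted p = 0.00927) and 0.28 (adjusted p = 0.00178). Of 10 genes of the spinal cord, Slc6a5, a glycine transporter of neurons, fell in G93a mice by 1.04 (adjusted p = 0.0133) and Mnx1, of motor neurons, by 1.21 (adjusted p = 0.0194). Of 5 forebrain genes, 2 were tested and neither passed. Of 6 peripheral nerve genes, 2 were tested in old and 4 in G93a mice; 2 rose in G93a mice, Egr2 (log2 fold change 5.05, adjusted p = 0.000339 in edgeR) and Pmp22 (0.57, adjusted p = 0.0232), while Prx (2.89, adjusted p = 0.0730) and Mal (−0.22, adjusted p = 0.110) did not pass. In old mice Pmp22 rose by 0.20 (adjusted p = 0.000934) and Mal fell by 0.52 (adjusted p = 5.83e-07). Egr2, with at most 3 counts in a control, passed the filter only through the G93a libraries. Of all genes tested, 13.5% rose in old and 18.4% in G93a mice. Cd5l, a scavenger protein of tissue macrophages, had 28 counts in G93a library 1 at its highest and at most 2 in a control, young or old library.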
